A study of Danio rerio with 8 samples.

Results

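The lens crystallin genes of the zebrafish were followed here by subfamily across all 8 libraries of a study of Hdac1, a histone deacetylase, and of Cyp26 enzymes, which degrade retinoic acid. Members were the gene rows whose symbols name an alpha crystallin (cryaa and cryab genes), a beta crystallin (cryba and crybb genes) or a gamma crystallin (crygm, crygn and crygs genes), so that the cryptochromes, whose symbols also begin with cry, stayed out. There were 48 members among 31172 gene rows in each of the 2 tables, made up of 3 alpha, 12 beta and 33 gamma genes. The beta genes fell into 6 beta A and 6 beta B genes, and the gamma genes into 24 gamma M, 3 gamma Mx, 2 gamma N and 4 gamma S genes. In whole embryos at 48 hours post-fertilization (hpf), crg mutants were set against WT siblings and Cyp26-deficient embryos against WT embryos. In cells sorted at 28 hpf for the nkx2.5:ZsYellow transgene, Hdac1-depleted cells and Cyp26-deficient cells were each set against WT cells of their own. The strain was AB/TU throughout. The crg allele is a recessive, chemically induced hdac1 mutation that damages a splice donor site. Depletion of Hdac1 and of Cyp26a1 with Cyp26c1 was described by the study as done with morpholinos, antisense oligonucleotides that were co-injected with a p53 morpholino, and whether the WT libraries received any injection was not given in the sources used here. The nkx2.5 transgene marks cardiac progenitors, and the sort can also hold differentiated heart muscle cells and pharyngeal arch progenitors. Each condition had 1 library, so no value below has a replicate check and none has a p-value.

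Crystallins are the soluble proteins that fill the fiber cells of the lens and give it its refractive power. Alpha crystallins are small heat shock proteins that act as chaperones and keep other lens proteins in solution. Beta and gamma crystallins belong to a single superfamily with a shared fold, the beta forms assembling into oligomers and the gamma forms remaining monomers. Gamma M crystallins are a fish group rich in methionine that packs tightly and is abundant in the dense fish lens, gamma S crystallins have a counterpart in the mammalian lens, and gamma N crystallins stand between the beta and gamma groups. Transcription of crystallin genes in lens fiber cells is driven by lens factors such as Maf, Sox, Prox1 and Hsf4 proteins.

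In the Zv9 gene models of the files, the members lay on 13 chromosomes, and 26 of the 48 stood in a single run of 373 kb on chromosome 9, from 23026437 to 23399587. That run held 23 gamma M, 2 gamma S and 1 gamma Mx gene. Its core is the gamma M2d set, 13 genes with numbered crygm2d symbols, treated here as near-identical copies from their names and arrangement since no sequences were compared, all on the minus strand between 23124506 and 23372927 (248 kb). Reads that match several copies cannot be assigned to a single gene with certainty, and the rule by which the aligner divided them was not given in the sources used here. For this reason single M2d values are uncertain and their sum is the safer measure, though not a complete one. Another 7 rows of M2d copies lie in the same stretch under other names, outside the rule on symbols. They held 17884 counts in WT siblings of crg mutants, and reads they share with the 13 genes can fall outside the sum. A pair of rows shared the symbol crygm2b and were kept apart as copy 1 and copy 2. For 9 members the gene model overlapped that of another gene row, among them crygm2f with crygm5 on the same strand and crygs3 with crygm3 and crygs4, and reads in the overlap cannot be told apart where the strand is shared or was not used.

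Total gene counts ran from 11070144 to 30257543 in whole embryos and from 13133598 to 19338815 in sorted cells. As a check of the labels, hdac1 had 1948 counts in crg mutants against 3757 in WT siblings, and 30936 in Hdac1-depleted cells against 14519 in WT cells, so its transcript was not lower in the morpholino library, where a transcript count does not measure the protein. The gene cyp26a1, itself a morpholino target and also a gene that responds to retinoic acid, had 6178 counts in Cyp26-deficient embryos against 398 in WT embryos, and 1746 in Cyp26-deficient cells against 117 in WT cells. Each of the 4 sorted libraries carried between 35016 and 61244 summed counts of 14 heart markers, and all of these markers were above 3 counts in every one.

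Whole embryos held the crystallins in quantity. Counts were compared after division by a size factor for each library, which gives normalized counts, and changes are log2 values with the mutant, depleted or deficient library over WT and 1 normalized count added to both. A change past 2-fold is called raised or lowered. Summed over the 48 members, crystallin counts made up 0.0221% of all gene counts in crg mutants against 0.529% in WT siblings, and 0.364% in Cyp26-deficient embryos against 0.489% in WT embryos. Sorted cells held far less: 0.00191% in Hdac1-depleted cells against 0.0142% in WT cells, and 0.00321% in Cyp26-deficient cells against 0.00183% in WT cells. The nkx2.5+ cells are not labelled as lens cells, and the crystallin counts they carried are described last.

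Levels of different genes were set on a scale of normalized counts per kb of exon. This corrects for exon length but not for uneven coverage along a gene, which differed between the pairs, as given below. The order of genes of unlike length is therefore uncertain. The most abundant members of WT siblings of crg mutants on this scale were crygm2d8 (12949), crygm2d13 (9946), cryba4 (8140), crygn2 (7937), cryba1l (6416) and crybb1l2 (6227). In the other WT library of whole embryos the order began with cryba1l (8734), cryba4 (8273), crygm2d13 (7736), crybb1 (7452), crygn2 (7368) and crybb1l2 (7327). Beta and gamma members were therefore both near the top of each WT library, but with 1 library per condition the order of neighbors is not established. The alpha crystallins stood far below them, with cryaa at 373.9 normalized counts per kb in WT siblings and cryaba and cryabb at 7 counts or fewer there. In crg mutants the order was led by cryba2b (618), cryba4 (571) and crygn2 (524), and the highest gamma M member, crygm2d8, stood in position 10 (99.1).

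In crg mutants all 3 subfamilies were low, and the gamma M2d set was by far the lowest. Of the 48 members, 35 averaged 10 normalized counts or more across the whole-embryo libraries, and of these 30 were lowered past 2-fold, 2 were raised and 3 were within 2-fold. Of the last 3, 2 had 0 counts in both libraries of the pair and so gave no fold. Over all 19888 genes that met the same minimum, 7.78% were lowered and 6.43% were raised. The median log2 fold change of the 35 was -4.57, against 0.01 for all genes tested. Because each count comes from 1 library, the intervals given with the changes (95%, exact, on the ratio with nothing added) cover counting error only. A member could meet the minimum through its WT libraries alone, so the share lowered describes the members and supports nothing further. In bulk libraries such as these, fewer lens cells and less crystallin RNA per lens cell cannot be told apart.

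**Figure D1:**
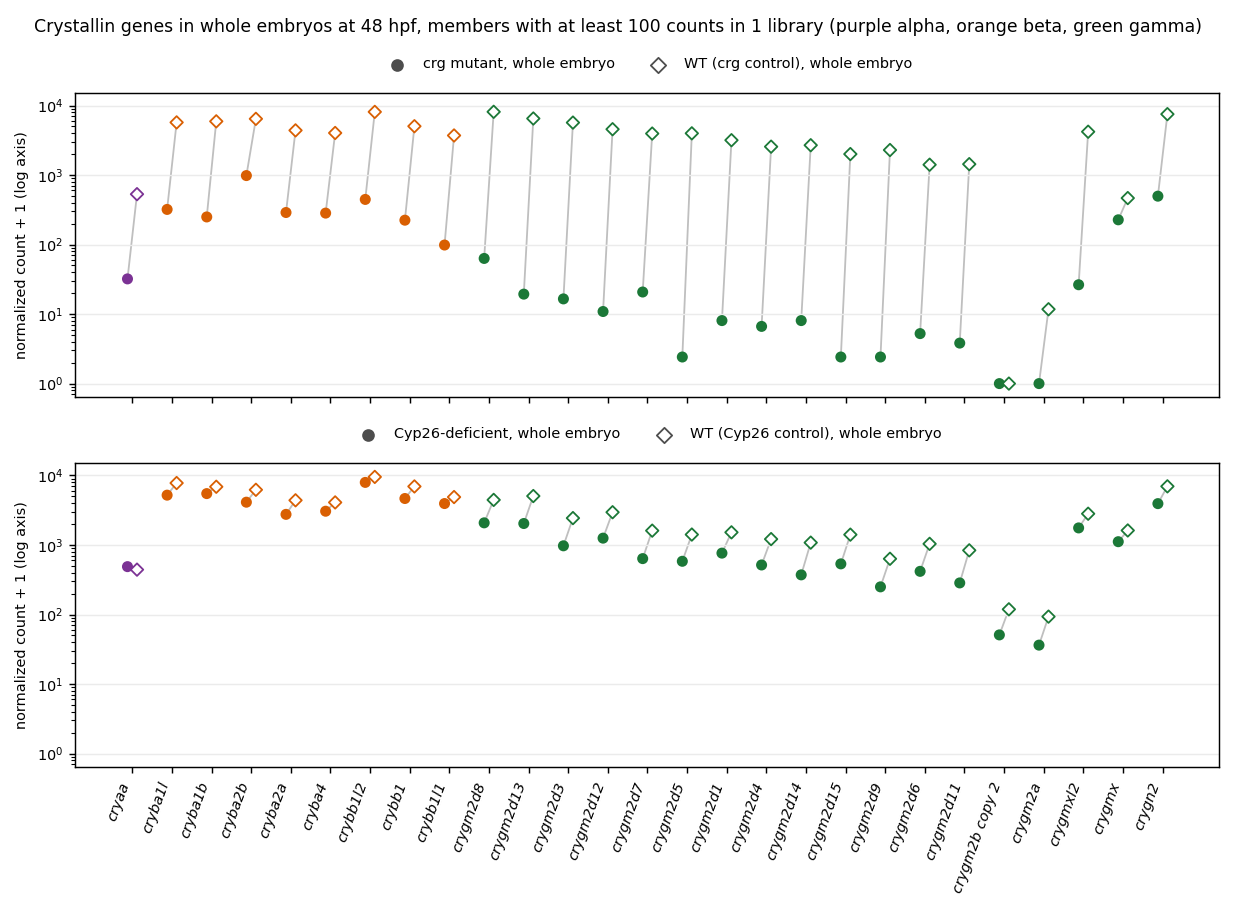
Normalized counts plus 1 (log axis) of the 27 crystallin genes with at least 100 counts in 1 whole-embryo library, for crg mutants and WT siblings (upper panel) and Cyp26-deficient and WT embryos (lower panel), 1 point per library. The 13 crygm2d genes come from 1 to 44 raw counts in crg mutants and 786 to 4536 in WT siblings, while the 8 beta genes keep 69 to 695 raw counts in crg mutants.

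Among the alpha crystallins, cryaa had 22 counts in crg mutants against 296 counts in WT siblings, which on the log2 scale is -4.05 (interval -4.79 to -3.47). The fish alpha B genes gave little to compare: cryabb had 0 counts in crg mutants against 7 in WT siblings, which is at least 2.96-fold lower when 0 is read as 3 counts, and cryaba had 0 counts in both libraries. The alpha result in whole embryos is thus a result on cryaa.

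The beta crystallins fell together. Summed over the 12 genes there were 2077 counts in crg mutants against 24311 in WT siblings, 14.8-fold lower (log2 -3.89, interval -3.96 to -3.83). Of the 11 beta genes that met the minimum, 10 were lowered and none was raised. The steepest fall was that of crybb1l1, a beta B1 relative, with 69 counts in crg mutants against 2072 in WT siblings (-5.24). Next came cryba1b, a beta A1 gene, with 176 against 3309 counts (-4.57), and crybb1, the beta B1 gene, with 158 counts in crg mutants against 2815 in WT siblings (-4.49). For crybb1l2 the counts were 315 in crg mutants against 4526 in WT siblings (-4.18), and for cryba1l 226 against 3194 (-4.16). The smallest of these 5 falls was 17.9-fold.

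The remaining beta A genes fell less. The crg mutants had 204 counts of cryba2a against 2453 in WT siblings (-3.92), and 200 counts of cryba4 against 2251 (-3.83). Of the beta genes with at least 100 counts, cryba2b fell the least, with 695 counts in crg mutants against 3594 in WT siblings (-2.71, interval -2.83 to -2.59), and its interval does not meet that of any of the other 7. The weakly counted genes changed less: crybb1l3 had 23 counts in crg mutants against 66 in WT siblings (-1.83), cryba1a had 3 against 10 and crybb3 8 against 9 (-0.48, interval -2.09 to 1.03). With 0 counts in crg mutants against 12 in WT siblings, crybb2 was at least 5.07-fold lower.

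Some beta genes stand head to head on opposite strands, a beta B with a beta A gene. The pair crybb1 and cryba4 on chromosome 10, 15.1 kb apart, changed by -4.49 and -3.83 on the log2 scale. For crybb1l1 and cryba1l on chromosome 14, 2.85 kb apart, the changes were -5.24 and -4.16. In the third such pair, cryba1a and crybb1l3 on chromosome 15, 1.82 kb apart, both genes were scarce, with 10 and 66 counts in WT siblings, and both changed less, by -1.85 and -1.83. The value of cryba1a, with few counts in both libraries, depends on the added count. In the first 2 pairs the beta B gene was the lower of the pair in crg mutants, by intervals that do not overlap.

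As a sum, the gamma crystallins were lowered more than the beta crystallins. Their 33 rows summed to 672 counts in crg mutants against 33925 in WT siblings, 64.0-fold lower (log2 -6.00, interval -6.11 to -5.89). This interval lies apart from the beta one. Within that sum the M2d genes fell furthest: 111 counts in crg mutants against 27011 in WT siblings, 308-fold lower (-8.27, interval -8.55 to -8.00). The 10 gamma members outside the M2d set that met the minimum had a median of -2.30, against -3.92 for the 11 beta members. With the other WT control these medians were -4.75 and -3.93, so outside the M2d set the order of gamma and beta turned with the control. All 13 M2d genes had 1 to 44 counts in crg mutants, against 786 to 4536 in WT siblings, and their single log2 changes ran from -10.69 to -7.01. The lower end of this range rests on 1 count in crg mutants and depends on the added count.

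The most abundant M2d gene, crygm2d8 (ENSDARG00000069817, chromosome 9, 23168076 to 23168921), was also the one that fell least, with 44 counts in crg mutants against 4536 in WT siblings (-7.01, interval -7.49 to -6.60). For crygm2d13 there were 13 counts in crg mutants against 3634 in WT siblings (-8.39), for crygm2d3 11 against 3174 (-8.42) and for crygm2d12 7 against 2549 (-8.71). The gene crygm2d7 had 14 counts in crg mutants against 2207 in WT siblings (-7.57). The single count of crygm2d5 in crg mutants against 2224 in WT siblings sets it at least 939-fold lower. In crg mutants 8 of the 13 genes had 5 counts or fewer, so their order among themselves is not resolved.

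The gamma genes outside the M2d set did not move as a block. The neighbors crygmxl2 and crygmx on chromosome 12, 1.14 kb apart on the same strand, are an example. Of crygmxl2 there were 18 counts in crg mutants against 2346 in WT siblings (-7.31, interval -8.13 to -6.70), a fall of the M2d size. Of crygmx there were 160 counts in crg mutants against 260 in WT siblings (-1.04, interval -1.34 to -0.75), only just past 2-fold. Against the other WT control, in which crygmx had 2087 counts, the same crg library stood at -2.83, so the size of the crygmx change rests on which WT library is used. Placement of the crygmx counts differed as well. Its last exon block held 19.45% of them in WT siblings and 24.75% in crg mutants, against 67.48% in the other WT control. The part of this placement in the contrast between the neighbors was not tested. The third Mx gene, crygmxl1, had 0 counts in crg mutants against 38 in WT siblings, at least 16.1-fold lower.

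The gamma N genes were called in opposite directions. With 351 counts in crg mutants against 4199 in WT siblings, crygn2 fell by 3.92 on the log2 scale (interval -4.08 to -3.76), which is the size seen in the beta genes and not that of the M2d genes. The scarce crygn1 had 20 counts in crg mutants against 7 in WT siblings (1.11, interval -0.13 to 2.66), and the gamma S gene crygs2 had 12 against 4 (1.14, interval -0.48 to 3.33). These are the 2 members called raised, both intervals reach 0, and neither call holds against the other WT control. Of the other gamma S genes, crygs1 had 0 counts in crg mutants against 12 in WT siblings, while crygs3 and crygs4 had 1 count or none in both.

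The proportions of the subfamilies shifted accordingly. They are given without the 7 M2d copies under other names. Gamma crystallins made up 24.4% of the gamma and beta counts in crg mutants (exact interval 22.8 to 26.1%), against 58.3% in WT siblings (57.9 to 58.7%). In Cyp26-deficient embryos the share was 32.2% (31.9 to 32.5%), against 42.4% in WT embryos (42.1 to 42.7%). The share was below that of the paired WT library in both whole-embryo comparisons, but the 2 WT libraries themselves differed by more than the Cyp26 pair did.

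**Figure D2:**
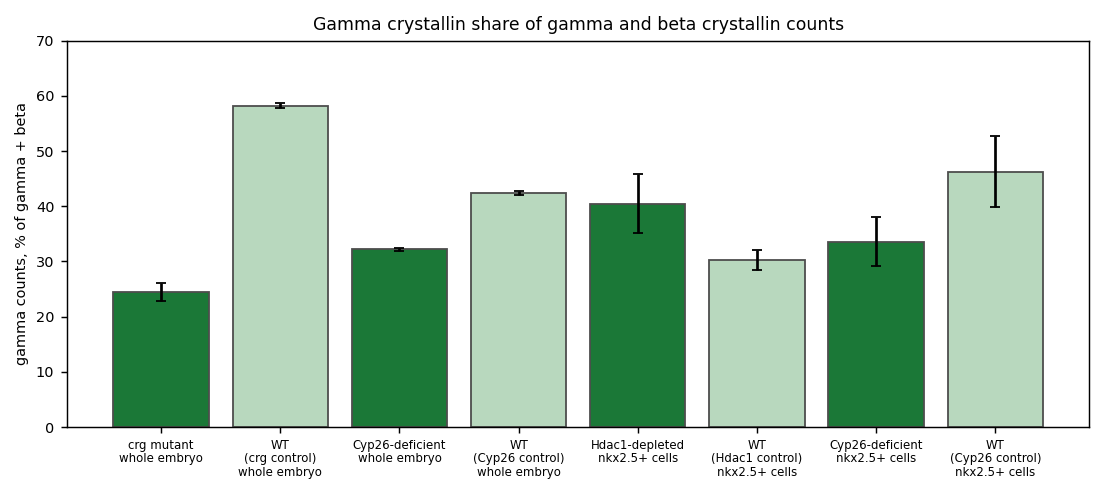
Gamma crystallin counts as a percentage of gamma plus beta crystallin counts in each of the 8 libraries, with 95% exact intervals for counting error; dark bars are mutant, depleted or deficient libraries and light bars their WT controls. The share is 24.4% in crg mutants against 58.3% in WT siblings and 32.2% in Cyp26-deficient against 42.4% in WT embryos.

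In Cyp26-deficient embryos the gamma M2d genes were again low, by a far smaller factor, while the summed beta and alpha crystallins stayed within 2-fold of WT. Of the same 35 members, 17 were lowered, none was raised and 18 were within 2-fold, and over all genes tested 2.59% were lowered and 3.5% were raised. The median log2 fold change of the 35 was -0.99, against -0.03 for all genes tested. Called genes comprised 16 of 23 gamma members and 1 of 11 beta members. Of these 16, 12 were M2d genes, which can share reads and so are not separate observations. Outside the M2d set 4 of 10 gamma members were lowered. When total counts set the scale in place of size factors, 11 members were lowered. Erythrocyte markers were low in the same libraries, 6 of 8 being lowered with a median of -1.46, and summed to 46884 counts in Cyp26-deficient embryos against 87448 in WT embryos. Their part in the crystallin result was not tested.

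The alpha gene cryaa had 967 counts in Cyp26-deficient embryos against 569 in WT embryos, which after correction for depth gives a log2 value of 0.14 (interval -0.01 to 0.30). The alpha B gene cryabb had 11 counts in Cyp26-deficient embryos against 8 in WT embryos. The beta sum was 73958 counts in Cyp26-deficient embryos against 65665 in WT embryos (-0.45, interval -0.46 to -0.43). Its 8 abundant genes lay between -0.67 and -0.26. At one end stood cryba2a with 5471 counts in Cyp26-deficient embryos against 5670 in WT embryos (-0.67), followed by cryba2b with 8191 against 8029 (-0.59). Values for cryba1l (10341 against 10042 counts) and crybb1 (9253 against 8972 counts) were both -0.58.

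At the other end were crybb1l2, crybb1l1 and cryba1b, which in crg mutants were among the 5 lowest beta genes with at least 100 counts. There were 15775 counts of crybb1l2 in Cyp26-deficient embryos against 12301 in WT embryos (-0.26), 7830 against 6312 counts of crybb1l1 (-0.31) and 10889 against 8879 counts of cryba1b (-0.33). With 6072 against 5284 counts, cryba4 changed by -0.42. The only beta call was the scarce crybb1l3, with 53 counts in Cyp26-deficient embryos against 93 in WT embryos (-1.40, interval -1.95 to -0.93), whereas cryba1a (52 against 48 counts, -0.49) and crybb3 (29 against 14 counts, 0.40) were not called. For crybb2 the counts were 2 in Cyp26-deficient embryos against 21 in WT embryos, at least 10.8-fold lower, but it missed the minimum level.

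Gamma crystallins summed to 35128 counts in Cyp26-deficient embryos against 48378 in WT embryos, 2.12-fold lower (log2 -1.08, interval -1.10 to -1.06). The M2d sum was 21223 counts against 33104 (-1.26, interval -1.29 to -1.24). The 13 M2d genes kept close together, from -1.56 to -0.99, and 12 of them were past 2-fold. The counts were 4131 in Cyp26-deficient embryos against 5744 in WT embryos for crygm2d8 (-1.10), 4041 against 6528 for crygm2d13 (-1.31), 1930 against 3144 for crygm2d3 (-1.32) and 2488 against 3819 for crygm2d12 (-1.24). For crygm2d7 they were 1262 in Cyp26-deficient embryos against 2074 in WT embryos (-1.34), and for crygm2d5 1155 against 1822 (-1.28). The gene just short of 2-fold was crygm2d1, with 1514 counts in Cyp26-deficient embryos against 1961 in WT embryos (-0.99).

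Outside the M2d set, crygn2 had 7809 counts in Cyp26-deficient embryos against 9003 in WT embryos (-0.83), crygmxl2 3492 against 3633 (-0.68) and crygmx 2212 against 2087 (-0.54), none past 2-fold. The minor copies crygm2a (70 against 119 counts, -1.36), crygm2b copy 2 (99 against 152, -1.22), crygm2b copy 1 (35 against 48, -1.04) and crygmxl1 (54 against 78, -1.12) were lowered as the M2d genes were. Values of crygn1 (26 against 30 counts, -0.78) and crygs2 (31 against 17 counts, 0.23) were within 2-fold.

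The WT libraries of the whole-embryo pairs bound what these figures can bear. Set against each other, WT siblings of crg mutants over WT embryos of the Cyp26 pair, the summed log2 ratio was 0.28 for alpha, -0.23 for beta, 0.70 for gamma and 0.91 for M2d crystallins. All 13 M2d genes were higher in the WT siblings of crg mutants, 7 of them past 2-fold. Of the 35 members 8 were past 2-fold higher and 5 lower there, against 10.1% and 14.9% of all genes tested. The lower ones included minor gamma copies: crygm2b copies 1 and 2 had 0 counts there against 48 and 152 in the other WT library, and crygm2a 6 against 119. The summed crg ratios were larger than these summed differences for each subfamily, but this did not hold for every gene, as in crygmx, which changed by -1.04 in crg mutants and by -1.79 between the WT libraries. With the other WT control the summed log2 ratio in crg mutants was -4.12 for beta, -5.30 for gamma and -7.35 for M2d, and 32 of the 35 members were lowered and none was raised, where over all genes 16.6% were lowered and 12.2% raised. For Cyp26 deficiency the same exchange gave -0.22 for beta, -1.78 for gamma and -2.18 for M2d, so that beta remained within 2-fold and gamma past it, but alpha turned to -0.14. Of the 35 members 17 were then lowered and 5 raised, against 9.37% and 13.8% of all genes tested, the 5 being crygmx, crygs2, crygm2a and both copies of crygm2b.

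**Figure D3:**
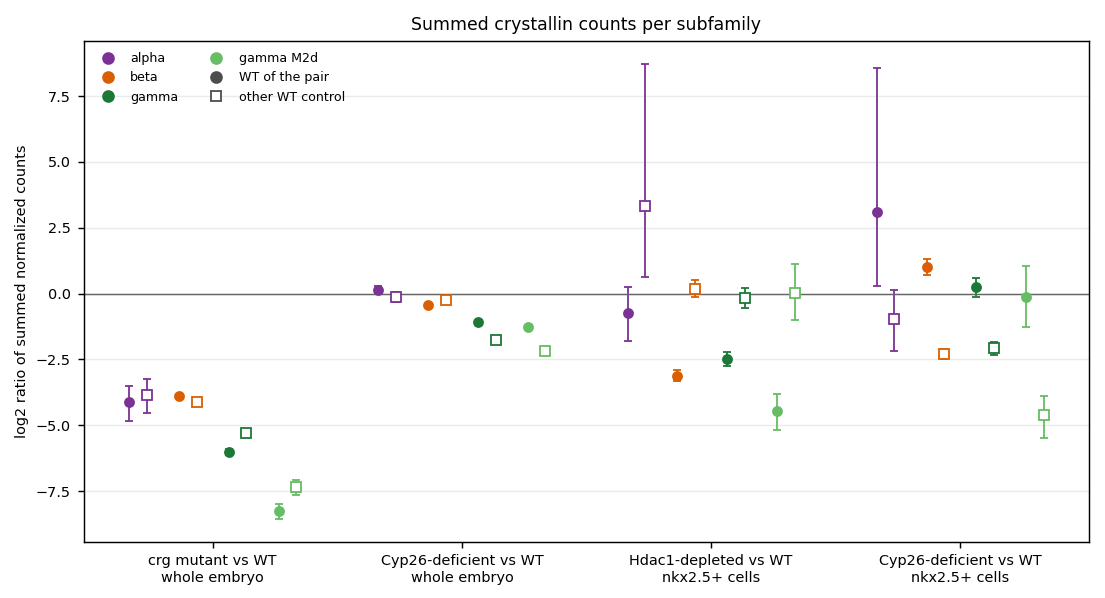
Log2 ratio of summed normalized counts of alpha, beta, gamma and gamma M2d crystallins in each of the 4 comparisons, with the paired WT library (filled circles) and with the other WT library of the same tissue (open squares); bars are 95% exact intervals for counting error. In whole embryos the M2d sum is lowest with either control, -8.27 and -7.35 in crg mutants, while in sorted cells the beta ratio turns sign with the control, -3.11 against 0.19 for Hdac1 depletion.

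Coverage along the genes also differed between the pairs, in the M2d set and in other members. In the 7 M2d genes with 3 exon blocks and at least 100 counts, the first block at the 5′ end held a median of 0.444% of the counts in WT siblings of crg mutants (0.0575 to 0.671%), against 10.7% in Cyp26-deficient embryos and 9.49% in their WT controls. Within the Cyp26 pair the values were alike, and crg mutants had too few M2d counts for this measure. For crygn2 the first block held 0.458% in WT siblings and 0.692% in crg mutants, against 6.87% in WT embryos of the Cyp26 pair. For crybb1l2 these values were 0.0411%, 0% and 3.84%. The difference was smaller for cryaa, at 20.0% in WT siblings against 26.3% in WT embryos of the Cyp26 pair, and cryba4 had 0% in each library. The part of this difference in the contrast between the WT libraries was not tested.

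Other genes of the eye give the setting. Over all genes tested, 7.78% were lowered and 6.43% raised in crg mutants, and 16.6% and 12.2% against the other WT control. In Cyp26-deficient embryos 2.59% were lowered and 3.5% raised, and 9.37% and 13.8% against the other WT control. The 16 measured lens differentiation genes other than crystallins included genes for membrane channels, gap junction proteins and cytoskeletal proteins of fiber cells, and genes of other kinds. In crg mutants 14 of the 16 were lowered and none was raised, with a median of -2.38, and 14 were also lowered against the other WT control. The largest falls were in lgsn, a lens glutamine synthetase relative, with 0 counts in crg mutants against 188 in WT siblings, in lctla, a klotho family gene, with 1 against 279, and in lim2.5, a lens membrane protein, with 2 against 159. The fiber cell filament gene bfsp2 had 8 counts in crg mutants against 490 in WT siblings (-6.16). These 4 fell further than any of the abundant beta crystallins, while the aquaporin mipa, with 283 counts in crg mutants against 840 in WT siblings, fell by 1.91 on the log2 scale. In Cyp26-deficient embryos 2 of the 16 were lowered, lgsn (213 against 367 counts, -1.40) and grifin (167 against 282 counts, -1.37), with a median of -0.40, and against the other WT control 2 were lowered and 2 raised.

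For the listed transcription factors of the lens and eye the result rested on the WT library used. Of 13 in crg mutants 2 were lowered and 1 was raised against WT siblings, with a median of -0.33, but 7 were lowered and none was raised against the other WT control, with a median of -1.13. The heat shock factor gene hsf4, which drives late fiber genes, had 0 counts in crg mutants against 37 in WT siblings, and six7 had 26 against 144 (-2.78). The gene raised against WT siblings alone was pax6b, with 301 counts in crg mutants against 107 in WT siblings (1.15). The lens vesicle factor foxe3 had 27 counts in both libraries (-0.33), and pitx3, prox1a and maf lay between -0.89 and -0.39. In Cyp26-deficient embryos hsf4 (70 against 106 counts, -1.20) and six7 (440 against 700 counts, -1.29) were the 2 lowered against the paired WT library, with a median of -0.35. Neither call held against the other WT control, where none of the 13 was lowered, 3 were raised and the median was 0.82. Of 21 photoreceptor and retina genes, 12 were lowered and 5 raised in crg mutants (median -2.33), and 6 were lowered in Cyp26-deficient embryos (median -0.45). Against the other WT control 15 were lowered and 1 was raised in crg mutants (median -2.21), while in Cyp26-deficient embryos 3 were lowered and 4 raised (median 0.02). The part of the eye as a whole in the crystallin values was not tested. Of 8 small heat shock relatives of the alpha crystallins, 1 was raised and 2 were lowered in crg mutants.

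**Figure D4:**
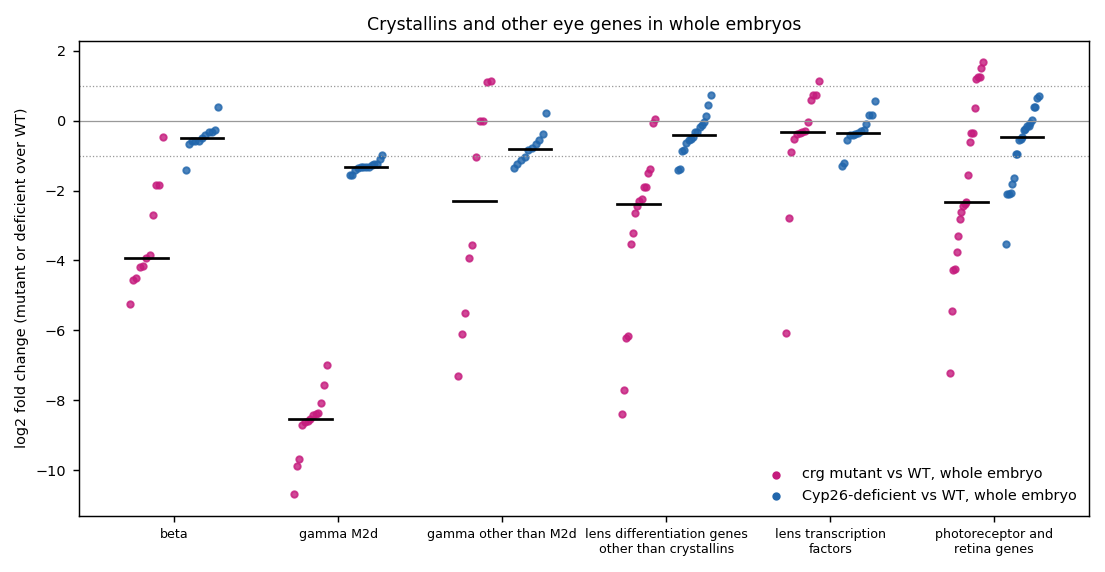
Log2 fold changes of single genes in crg mutants over WT siblings and in Cyp26-deficient over WT embryos, for the beta, gamma M2d and other gamma crystallins that met the minimum level and for 3 lists of other eye genes; black lines are medians and dotted lines mark 2-fold. The M2d genes have the lowest median of the groups shown in both comparisons, at -8.55 and -1.31. In crg mutants crygm2b copies 1 and 2 stand at 0 because both libraries had 0 counts.

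In sorted nkx2.5:ZsYellow+ cells the counts were small and the 2 WT libraries disagreed. All 48 members summed to 2741 counts in WT cells of the Hdac1 pair against 241 in WT cells of the Cyp26 pair. After correction for depth, 14 of the 16 members that met the minimum were past 2-fold higher in WT cells of the Hdac1 pair and none was lower, where over all genes tested 8.4% were higher and 6.85% were lower. A member could meet the minimum through WT cells of the Hdac1 pair alone. The share higher here, and the shares lowered against this WT library below, therefore describe the members and support nothing further. The summed beta ratio between these 2 WT libraries was 3.30 on the log2 scale (interval 3.04 to 3.57) and the gamma ratio 2.31 (2.02 to 2.61).

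In Hdac1-depleted cells 14 of the 16 members were lowered, 1 was raised and 1 was within 2-fold of the paired WT cells. Over all 20033 genes tested 12.7% were lowered and 12.4% were raised. Beta crystallins summed to 204 counts in Hdac1-depleted cells against 1895 in WT cells (log2 -3.11, interval -3.33 to -2.90), and gamma crystallins to 138 against 821 (-2.47, interval -2.74 to -2.21). Against the other WT control the beta ratio was 0.19 (interval -0.14 to 0.52) and the gamma ratio -0.16 (-0.53 to 0.21), and of the 16 members 5 were lowered and 4 raised, against 14.9% and 15.6% of all genes tested. The summed falls in Hdac1-depleted cells therefore hold only against the WT library with which they were paired.

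The most counted member was cryba4, with 92 counts in Hdac1-depleted cells against 638 in WT cells (-2.68), but 21 counts in the other WT library, against which it stood at 1.62. The same turn was seen in crybb1, with 10 counts in Hdac1-depleted cells against 422 in the paired WT cells and 2 in the other (-5.15 and 1.51). It was seen again in cryba2a, with 36 against 118 in the paired WT cells and 3 in the other (-1.58 and 2.81), and, short of 2-fold with the other control, in cryba2b, with 12 against 169 and 6 (-3.59 and 0.47). Members low under either control were cryba1b (1 count in Hdac1-depleted cells against 156 and 14 in the WT libraries), cryba1l (38 against 234 and 76), crybb1l2 (1 against 61 and 4), crygm4 (15 against 41 and 35) and crygn2 (9 against 204 and 14). Of these, cryba1l fell by 2.49 against the paired and by 1.45 against the other WT library. The falls of crybb1l2 and crygn2 against the other WT library, from 4 to 1 and from 14 to 9 counts, rest on too few counts to be established.

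The gamma M2d genes summed to 20 counts in Hdac1-depleted cells against 474 in WT cells (-4.46, interval -5.19 to -3.82), with 14 in the other WT library. Of the 13 genes, 10 had 0 counts in Hdac1-depleted cells, among them crygm2d8 with 138 counts in WT cells, at least 42.9-fold lower, crygm2d13 with 69, crygm2d4 with 54 and crygm2d5 with 34. Of the 20 remaining counts 18 belonged to crygm2d3, and every one of these lay in its first exon block of 413 bases (chromosome 9, 23314787 to 23315199). Among sorted cells that exon took 6 of the 71 counts of crygm2d3 in WT cells, all 12 in the other WT library and 2 of 3 in Cyp26-deficient cells. By this exon, the counts in Hdac1-depleted cells were placed unlike those of the paired WT cells.

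Exceptions to the fall were minor genes. The gene crygn1 had 22 counts in Hdac1-depleted cells against 6 in WT cells (1.78, interval 0.63 to 3.57). In Cyp26-deficient cells it had 21 counts against 0 in WT cells, at least 6.05-fold higher, 9 of them in its last exon. It was thus above both WT libraries in both treated libraries, the sole one of the 16 members called raised against either control in each comparison. With 6 and 0 counts in the WT libraries, crygn1 met the minimum only through the treated ones. Its place as the sole such member therefore describes the gene and supports nothing further. Its call in Hdac1-depleted cells was lost with the higher pseudocount, the interval limit or the highest exon. The gamma S gene crygs2 had 49 counts in Hdac1-depleted cells against 58 in WT cells (-0.14, interval -0.72 to 0.43), and 29 in Cyp26-deficient cells against 36 in WT cells (-0.51). No alpha gene met the minimum: cryaa had no counts in either library of the Hdac1 pair, cryaba had 9 in Hdac1-depleted cells against 20 in WT cells, and cryabb had 5 in each. In Cyp26-deficient cells there were 4, 2 and 4 counts of cryaa, cryaba and cryabb, against 0, 0 and 1 in WT cells.

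**Figure D5:**
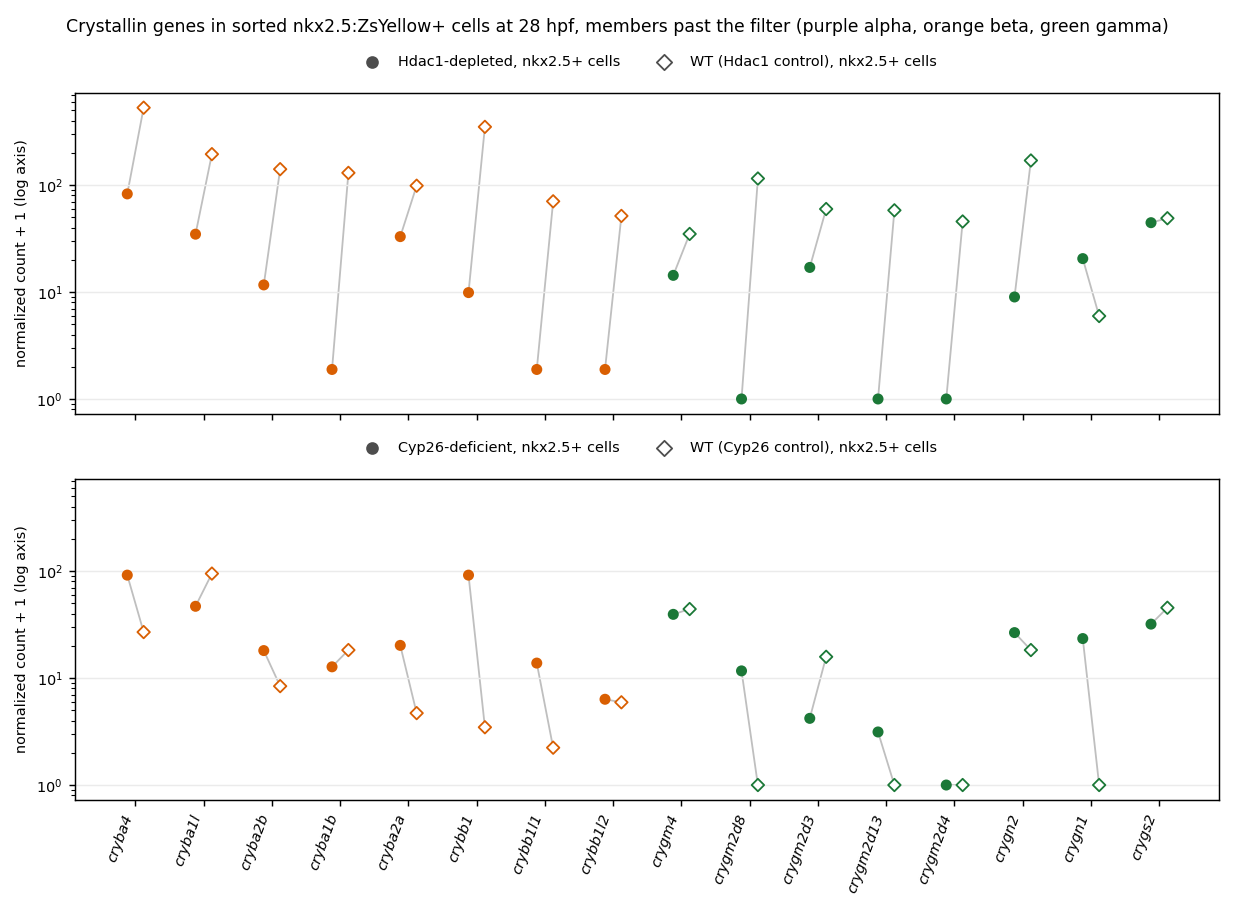
Normalized counts plus 1 (log axis) of the 16 crystallin genes that met the minimum level in sorted nkx2.5:ZsYellow+ cells, for Hdac1-depleted and WT cells (upper panel) and Cyp26-deficient and WT cells (lower panel), 1 point per library. WT cells of the Hdac1 pair come from 638 raw counts of cryba4 against 21 in WT cells of the Cyp26 pair, and crygn1 is the member above WT in both panels by more than 2-fold.

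In Cyp26-deficient cells 8 of the 16 members were raised, 2 were lowered and 6 were within 2-fold, and over all genes tested 8.81% were raised and 7.6% were lowered. The beta sum was 299 counts in Cyp26-deficient cells against 129 in WT cells (log2 1.0, interval 0.70 to 1.31), and the gamma sum 151 against 111 (0.23, interval -0.13 to 0.60). Against the other WT control these became -2.30 and -2.07, with 1 member raised and 13 lowered against 6.57% and 7.59% of all genes tested, so no direction can be given for Cyp26-deficient cells. Only 3 of the 8 raised members had a counting interval that stayed past 2-fold.

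Of the single genes, crybb1 had 85 counts in Cyp26-deficient cells against 2 in WT cells, at least 24.5-fold higher, yet 422 in the other WT library. Similarly, cryba4 had 85 counts against 21 in WT cells and 638 in the other WT library (1.77 and -2.53). The counts of cryba2a were 18 in Cyp26-deficient cells against 3 in WT cells, of cryba2b 16 against 6 and of crybb1l1 12 against 1. The lowered genes were cryba1l, with 43 counts in Cyp26-deficient cells against 76 in WT cells (-1.02), and crygm2d3, with 3 against 12. In WT cells of the Cyp26 pair the last 2 of the 6 exon blocks of cryba1l held 62.2 and 13.8 of its 76.1 counts, and in WT cells of the Hdac1 pair 140 and 51.4 of 234. For crygm2d13, called raised on 2 counts against 0, no fold is given.

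Markers of other cells differed between the sorted WT libraries as well. Of 8 skeletal muscle markers 7 were past 2-fold higher in WT cells of the Hdac1 pair than in those of the Cyp26 pair, of 8 epidermis markers 5, and of 12 lens differentiation genes 7, while 1 of 5 neuron markers was lower. Over all genes tested 8.4% were higher and 6.85% were lower. In Cyp26-deficient cells 7 of the 8 muscle markers were raised against the paired WT cells (median 1.40). Against the other WT control 0 were raised and 1 was lowered (median -0.09). In Hdac1-depleted cells 6 of 8 erythrocyte markers were lowered against the paired WT cells (median -1.34), and 4 against the other WT control (median -1.13). Of the 14 heart markers 2 were lowered in Hdac1-depleted cells and 3 raised in Cyp26-deficient cells against the paired WT cells. With the other WT control 2 were raised and 1 was lowered in Hdac1-depleted cells, and 0 were raised and 1 was lowered in Cyp26-deficient cells. Over all genes, 12.7% were lowered and 12.4% raised in Hdac1-depleted cells, and 14.9% and 15.6% against the other WT control. For Cyp26-deficient cells these shares were 7.6% and 8.81%, and 7.59% and 6.57% against the other WT control. The 2 heart markers lowered in Hdac1-depleted cells are near the share over all genes. The part of muscle, epidermis, neuron and erythrocyte cells in the crystallin values was not tested. Of 12 lens genes other than crystallins, 5 were lowered, 1 was raised and 6 were within 2-fold in Hdac1-depleted cells, and against the other WT control 2 were lowered and 4 raised. Against the paired library, lim2.4 had 0 counts in Hdac1-depleted cells against 135 in WT cells and mipa 81 against 312, while lim2.2 had 76 against 19.

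Members at the edge of detection complete the account. Both libraries of a pair were at 3 counts or fewer for 10 of the 48 members in the crg comparison, for 4 in the Cyp26 comparison of whole embryos, for 15 in Hdac1-depleted and WT cells and for 27 in Cyp26-deficient and WT cells. In whole embryos crygm6, crygm7, crygs3 and cryaba were among them in both comparisons. The gene crygm4 on chromosome 6 was unusual in having no count in either library of the crg pair, 0 in Cyp26-deficient and 5 in WT embryos, but 15 to 41 counts in each of the 4 sorted libraries.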

How the data were processed

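RNA was sequenced from whole embryos (Trizol extraction, stranded single-end reads) and from sorted cells (amplified single-cell kit, paired-end reads). The authors aligned reads to Zv9 (danRer7) with Strand-NGS. Its version, filters and rule for reads that match several copies were not given in the sources used here. The authors deposited expected counts, estimated per gene and not always whole, in 1 table for whole embryos and 1 for sorted cells.

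After rounding, each table was scaled with its own median-of-ratios size factors (DESeq2 1.42.0). Log2 fold changes used a pseudocount of 1, genes needed a mean of at least 10 normalized counts, and a change past 2-fold was called. With 1 library per condition no test across samples was run. Exact 95% Clopper-Pearson intervals cover counting error. For "at least" folds a library at or under 3 counts was read as 3, and no fold is given where both are at or under it. Calls, medians and ranges instead used the values with the pseudocount. Some single log2 values are also printed that way for libraries at or under 3 counts, and these depend on the pseudocount. The code was tested on simulated data.

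The members and gene lists were chosen with earlier results of these data known. Values per library are given for every alpha member, for beta, gamma N and gamma S members with at least 100 counts in 1 library of a table, and for the 6 gamma M members with the highest mean in each table. Members outside this rule, such as crygmx, crygn1 in whole embryos and crygm4, were named after their values were seen. Genes of other lists are given by counts and medians, with the largest changes named for the lens lists.

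Alternatives were edgeR TMM factors, total counts, size factors without crystallin genes, pseudocounts of 0.1 and 10, other minimums and thresholds, the other WT control of the tissue, and the highest exon of each gene.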

Additional observations from a re-analysis of the deposited data

Results flagged for a closer look

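Under Cyp26 deficiency crygm2d8 moved in opposite directions in the 2 tissues. In whole embryos it had 4131 counts in Cyp26-deficient embryos against 5744 in WT embryos, a log2 fold change of -1.10. In nkx2.5+ cells it had 10 counts in Cyp26-deficient cells against 0 in WT cells, a fitted value of 3.54 that depends on the pseudocount, and at least 2.88-fold higher when 0 is read as 3 counts. The difference between the tissues was not tested, since each condition had 1 library. Against the other WT control of sorted cells, in which crygm2d8 had 138 counts, the value was -3.30.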

How the results depend on the processing

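No paired analysis was possible because each condition had 1 library. In crg mutants the count of 30 lowered members stayed within 1.5 times under every alternative run, while the 2 raised members fell to 0 with a pseudocount of 10, a minimum mean of 50, a 4-fold limit, an interval limit past 2-fold, the other WT control or the highest exon. In Cyp26-deficient embryos the 17 lowered members became 11 with total counts and 0 past 4-fold, and 5 members were raised against the other WT control in place of 0. In Hdac1-depleted cells the 14 lowered members became 29 with no minimum, 4 with a mean of at least 50, 5 with the other WT control and 9 by the highest exon. The 1 raised member became 4 with no minimum or the other WT control and 0 with a pseudocount of 10, a mean of at least 50, 4-fold, the interval limit or the highest exon. In Cyp26-deficient cells the 8 raised members became 20 with no minimum, 2 with a mean of at least 50, 5 past 4-fold, 3 by the interval limit, 1 with the other WT control and 3 by the highest exon. The 2 lowered members there became 1 with total counts, a mean of at least 50 or the highest exon, 0 with a pseudocount of 10, 4-fold or the interval limit, 5 with no minimum and 13 with the other WT control. Summed log2 ratios in crg mutants with total counts and with the other WT control were -3.73 and -4.12 for beta and -5.84 and -5.30 for gamma. In Cyp26-deficient embryos they were 0.39 and -0.14 for alpha, -0.20 and -0.22 for beta and -0.83 and -1.78 for gamma, and TMM gave -0.43 for beta and -1.06 for gamma. With the other WT control the ratios in Hdac1-depleted cells were 3.33 for alpha, 0.19 for beta and -0.16 for gamma, and those in Cyp26-deficient cells -0.95, -2.30 and -2.07. The alpha ratio of 3.33 rests on 14 counts against 1 (interval 0.62 to 8.73). Against the paired WT cells it was -0.73 (interval -1.79 to 0.27), so no alpha change is established. Some genes of the naming rule that were called past 2-fold changed sign against that control. In Hdac1-depleted cells they were cryba2a (2.81), cryba2b (0.47), crybb1 (1.51), cryba4 (1.62) and crygm2d3 (0.10). In Cyp26-deficient cells they were cryba2a (-2.29), cryba2b (-2.96), crybb1 (-1.93), cryba4 (-2.53) and crygm2d8 (-3.30). Genes not called could turn as well, such as crygn2 in Cyp26-deficient cells, from 0.54 to -2.67. By the highest exon crygm2d3 stood at 1.51 in Hdac1-depleted cells. That value comes from its exon of 413 bases, with 18 counts in Hdac1-depleted cells against 6 in the paired WT cells. The cause of this placement was not tested. Of 65 values of single genes, 65 stayed within counting error under TMM, a pseudocount of 0.1 or size factors without crystallin genes, 45 with total counts and 20 with the other WT control. Low crystallin counts limit the sorted cells, where few members exceed 100 counts.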

Other observations

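Another 9 gene rows were crystallins under other names and were left out by the rule on symbols. Of these, 7 were further gamma M2d copies, and their summed counts were 69 in crg mutants against 17884 in WT siblings and 10759 in Cyp26-deficient embryos against 18541 in WT embryos. In sorted cells they summed to 3 counts in Hdac1-depleted cells against 194 in WT cells, and to 7 in Cyp26-deficient cells against 0 in WT cells.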
